A study of Homo sapiens with 4 samples.

Results

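The S100 proteins and the annexins were described from the RNA-seq counts of the MDA-MB-231 cell line and its subline MDA-MB-231-LM2 (LM2). The members were taken by gene name: 19 S100 genes, S100PBP, whose product binds S100P and is itself no S100 protein, and 12 annexins. All 32 genes are listed in the deposited table, as 48 of its 65423 transcripts, and each gene was read from its transcript with the most counts over both columns. MDA-MB-231 is a human breast cancer cell line of mesenchymal type, labelled parental, and LM2 is its subline labelled highly metastatic to the lung. MDA-MB-231 was grown in L-15 medium in air and LM2 in DMEM in air with CO2, both with fetal serum, so that the cell lines also differ in medium and gas, whose effects cannot be told apart from theirs. By the labels each cell line has 2 samples, but the table holds 1 column of counts per cell line. No difference below can be set against replicates, so p-values are left out. The column of MDA-MB-231 holds 130689252 counts and that of LM2 128985870. Ratios divide the LM2 count by that of MDA-MB-231, scaled by these totals. They carry exact 95% intervals (Clopper-Pearson) for counting error alone. Levels of different genes were compared as RPKM, the count per kilobase of transcript scaled to the total of the column.

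S100 proteins are small calcium-binding proteins with a pair of EF-hands, and most work as dimers that dock onto other proteins when calcium rises. Some are also secreted and act on receptors such as RAGE, the product of AGER. Annexins bind phospholipid membranes in the presence of calcium, through repeats of a conserved fold, and take part in membrane repair, vesicle traffic and anti-inflammatory signaling. Both families meet in complexes such as that of S100A10 with annexin A2, which sits at the cell surface and binds plasminogen. Most S100 genes lie together on chromosome 1, whereas the annexin genes are scattered over the genome.

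S100A4, the S100 protein best known from cell motility and metastasis, was the member with the largest difference among those that averaged 50 counts or more over both columns, and it was lower in LM2. Of the 32 members, 22 reached that mean, namely 12 of 20 in the S100 list and 10 of 12 annexins. Of these 22, 2 were over 2-fold lower in LM2, S100A4 and S100A5, and 0 were over 2-fold higher. Among all 15469 genes at that level, 6.86% lay beyond 2-fold on the lower side and 4.60% on the higher, so the share of the members beyond 2-fold (2 of 22) was near that of all genes (11.5% in either direction). Counting error was small beside most of the differences, since the interval lay wholly above equal levels for 11 members and wholly below for 7. Over all genes these shares were 37.0% and 38.3%. The median log2 ratio was 0.17 in the S100 list and 0.36 in the annexins, against 0.00 over all genes. Intervals of these medians, for the spread across genes alone, ran from -0.34 to 0.21 and from -0.41 to 0.71. Both held the median of all genes. The spread between cultures cannot be read from these columns, so the intervals understate the error of every difference.

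**Figure D1:**
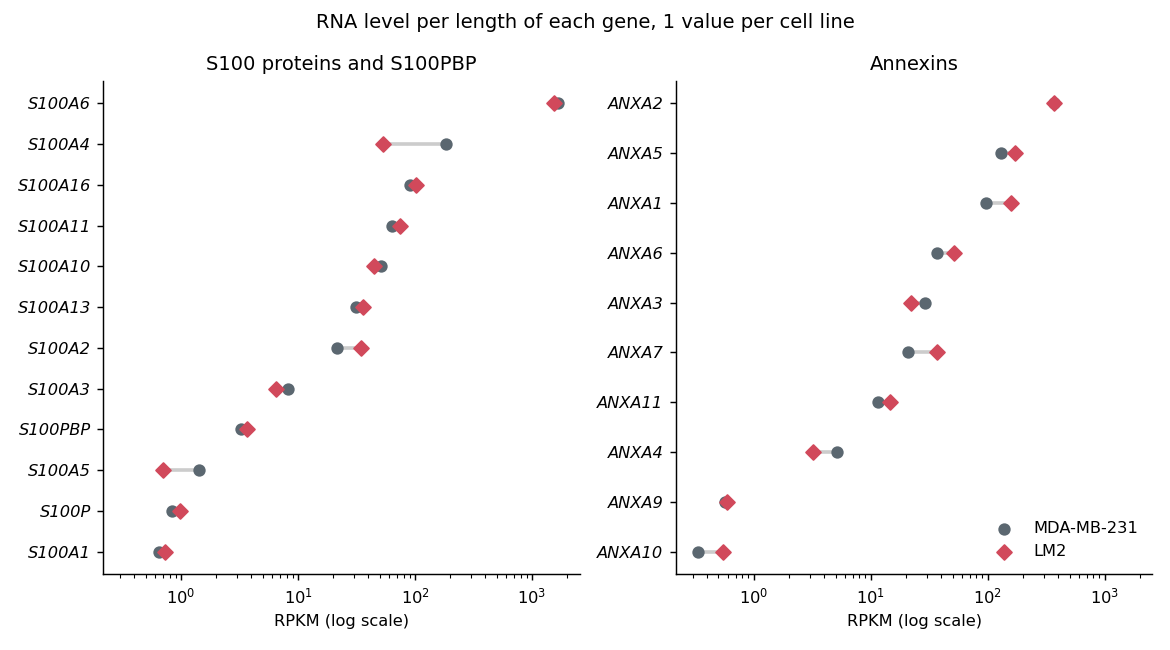
RPKM (x axes, log scale) of the 12 genes of the S100 list and the 10 annexins averaging 50 counts or more, 1 value per cell line. Grey circles are MDA-MB-231 and red diamonds LM2, joined by a line for each gene. S100A6 stood at the top of its list in both cell lines, and the longest line is that of S100A4, from 184.7 to 53.3.

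S100A6 was by far the most abundant S100 RNA of both cell lines. This protein, also called calcyclin, is found in proliferating cells and binds the ubiquitin ligase adaptor CACYBP. It had 149049 counts in MDA-MB-231 against 136046 in LM2, at 1670 and 1544 RPKM, and so ranked 12 and 17 among the 15469 genes. Its level was 1.08-fold lower in LM2 (1.07 to 1.09). S100A6 alone made up 78.5% of the summed RPKM of the S100 list in MDA-MB-231 and 81.3% in LM2. Below it stood S100A4, S100A16, S100A11 and S100A10 in MDA-MB-231, and in LM2 S100A16, S100A11, S100A4 and S100A10. S100A4 thus moved from the second place to the fourth. The order depends on the transcript length used. By the transcript with the highest RPKM, S100A13 reached 56.6 in LM2, above S100A10 (44.3) and below S100A4 (58.5).

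S100A4, which binds non-muscle myosin and loosens its filaments, had 13611 counts in MDA-MB-231 against 3878 in LM2. Its RPKM values were 184.7 and 53.3. In LM2 it was thus 3.46-fold lower (3.34 to 3.59), or -1.79 as a log2 ratio (-1.84 to -1.74). Of all genes, 2.48% had a smaller ratio. The other listed transcript of S100A4, NM_002961, had 13576 and 3863 counts and the same log2 ratio. Its counts nearly equal those of the transcript used, so it is no separate measurement. S100A5, a small calcium-binding protein of olfactory neurons that lies next to S100A4 on the chromosome, had 133 and 64 counts. It was 2.05-fold lower, and its wide interval (1.51 to 2.81) held 2-fold. S100A3, on the other side of S100A4 and known from the hair cuticle, was 1.27-fold lower (1.14 to 1.41) at 796 and 620 counts.

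The lower level was not shared by all genes of the chromosome region. S100A6, next to S100A5, differed by 1.08-fold as given above. S100A2, an S100 protein of the nucleus of epithelial cells and the neighbour of S100A3, was higher in LM2, with 2696 counts in MDA-MB-231 against 4264 in LM2 (1.60-fold, 1.53 to 1.68). The next genes along the chromosome had ratios close to each other. S100A16, a widely expressed member, was 1.13-fold higher (1.10 to 1.16), and S100A13, which takes part in the release of FGF1 and IL1A without a signal peptide, 1.14-fold higher (1.09 to 1.20). CHTOP and SNAPIN, the nearest genes outside the cluster on that side, were 1.22-fold (1.17 to 1.28) and 1.29-fold (1.20 to 1.39) higher. On the far side of the cluster, C2CD4D and THEM4 had log2 ratios of -1.32 and -0.37. Between these and S100A6, S100A10 and FLG had -0.21 and -0.86, S100A11 and FLG2 0.22 and 0.58, and HRNR -0.01. The part of the region in these ratios was not tested. The 30 protein-coding genes nearest to S100A4 and averaging 50 counts or more, 9 of them members, had a median log2 ratio of 0.10, and 2 of the 30 were over 2-fold lower.

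**Figure D2:**
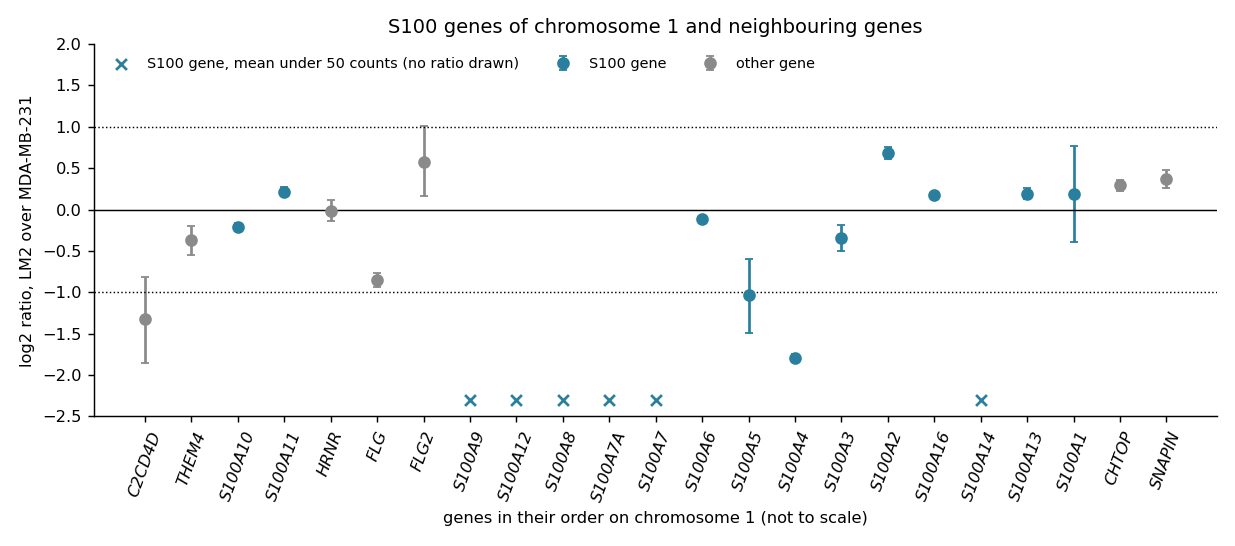
Log2 ratio, LM2 over MDA-MB-231 (y axis), of the S100 genes of chromosome 1 and of neighbouring protein-coding genes, in their order along the chromosome (x axis, not to scale). Points are S100 genes (blue) and other genes (grey), bars the 95% counting intervals, dotted lines mark 2-fold, and crosses at the foot are S100 genes with a mean under 50 counts, whose height carries no value. S100A4 stands at -1.79 between S100A5 at -1.04 and S100A3 at -0.34, and S100A6 lies at -0.11.

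The bases upstream of the start site are shown for S100A4, for its near neighbour S100A6, whose level hardly differed, and for ANXA1 and ANXA7, annexins that were higher in LM2. Each line gives the 250 bases before the start in RefSeq, 5′ to 3′ on the strand of the gene, in GRCh38.p14, with motif matches in capitals. S100A4 lies at chr1:153545807-153546056 (minus strand), S100A6 at chr1:153535992-153536241 (minus), ANXA1 at chr9:73151615-73151864 (plus) and ANXA7 at chr10:73414059-73414308 (minus).
S100A4: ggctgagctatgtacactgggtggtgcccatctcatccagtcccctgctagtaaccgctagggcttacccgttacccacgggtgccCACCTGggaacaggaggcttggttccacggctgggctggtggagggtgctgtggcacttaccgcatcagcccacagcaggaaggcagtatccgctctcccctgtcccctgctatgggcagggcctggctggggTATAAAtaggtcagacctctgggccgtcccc
S100A6: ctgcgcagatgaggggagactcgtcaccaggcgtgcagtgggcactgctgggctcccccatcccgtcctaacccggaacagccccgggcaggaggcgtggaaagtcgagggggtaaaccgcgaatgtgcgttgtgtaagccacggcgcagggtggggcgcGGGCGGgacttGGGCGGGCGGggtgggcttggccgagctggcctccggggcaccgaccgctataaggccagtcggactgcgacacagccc
ANXA1: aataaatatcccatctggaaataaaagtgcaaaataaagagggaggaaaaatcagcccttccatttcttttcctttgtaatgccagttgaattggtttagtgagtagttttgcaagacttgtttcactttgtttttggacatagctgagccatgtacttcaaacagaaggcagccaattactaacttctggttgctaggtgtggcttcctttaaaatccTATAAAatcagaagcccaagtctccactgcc
ANXA7: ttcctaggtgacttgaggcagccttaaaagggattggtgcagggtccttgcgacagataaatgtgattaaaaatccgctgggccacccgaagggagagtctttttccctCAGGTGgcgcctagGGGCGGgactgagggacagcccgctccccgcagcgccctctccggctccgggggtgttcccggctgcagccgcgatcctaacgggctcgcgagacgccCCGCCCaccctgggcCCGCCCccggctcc
The motifs searched on both strands were the TATA box (TATAAA), the AP-1 site (TGANTCA), an E-box that ZEB and SNAI factors bind (CAGGTG), the GC box (GGGCGG) and an NF-κB site, and matches may overlap. S100A4 and ANXA1 hold a TATA box that starts 31 bases before the start site. S100A6 and ANXA7 hold no exact TATAAA and have 3 GC boxes each. S100A6 does hold tataag at about the same place, a near match that the search did not count. S100A4 and ANXA7 also hold an E-box match. The table has promoters for 29 of the 32 members, 42 in all since some genes have several starts. TATAAA was found in 10 of 28 promoters of the S100 list and in 4 of 14 of the annexins, against 10.7% of all 35116 promoters. CAGGTG was found in 12 of the 28 and 5 of the 14, against 17.5%, and TGANTCA in 5 and 1, against 6.57%. The GC box was found in 8 of the 28 and 7 of the 14, against 42.6%, and the NF-κB site in 0 and 1, against 0.527%. CpG dinucleotides numbered 4 at the median of the S100 list and 18.5 of the annexins, against 11 over all promoters. Of the promoters printed above, that of S100A6 had 24, that of ANXA7 20, that of S100A4 7 and that of ANXA1 0. These matches are descriptions of the sequence, and no binding was measured.

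The remaining S100 RNAs at measurable levels differed by less than 1.2-fold. S100A11, which binds annexin A1 and shapes the cytoskeleton of spreading cells, had 4938 counts in MDA-MB-231 against 5667 in LM2, 1.16-fold higher (1.12 to 1.21). S100A10, the partner of annexin A2, was 1.16-fold lower (1.12 to 1.20) at 7085 and 6025 counts. S100PBP was 1.12-fold higher (1.05 to 1.19). S100P, a marker of several carcinomas, had 56 and 64 counts and S100A1, a regulator of calcium cycling in muscle, had 50 and 56. The intervals of both took in equal levels, so no difference was detectable at this depth. S100A1 and S100A13 lie on opposite strands and share 235 exon bases in GENCODE release 29. The few counts of S100A1 may therefore hold reads of S100A13, which had 3695 and 4169 counts, because the counts are not known to separate strands. S100A13 in turn shares 536 exon bases with AL162258.1 on its own strand, which had 2414 and 2761 counts.

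The S100 genes of myeloid cells and of the skin were at or near 0. S100A8, S100A12, S100A7 and S100A7A had 0 counts in both cell lines, and S100A9, the partner of S100A8 in calprotectin, had 0 and 1. For S100A8 a count of 0 allows up to 3 counts, or 0.0439 RPKM in MDA-MB-231 against 0.0445 for LM2. S100B, the S100 protein of glia and melanocytes, had 0 and 1 counts. S100A14, found in epithelia, had 7 and 10 counts, and S100G, a calcium carrier of the intestine, had 8 counts in MDA-MB-231 against 0 in LM2. The 30 genes nearest to S100G on the X chromosome had a median log2 ratio of -0.99, and their part in this was not tested. Of 6 markers of myeloid cells, 6 had an RPKM under 1 in both cell lines, as had 4 of 5 of keratinocytes and 4 of 5 of melanocytes and Schwann cells. VIM, the intermediate filament of mesenchymal cells, stood at 550.0 and 951.0 RPKM, while the luminal receptor genes ESR1 and PGR had between 2 and 8 counts. The same list of 9 markers also held keratin genes at high levels, KRT8 (126 and 95.4 RPKM) and KRT18 (112 and 134). Its other genes were CD44 (23.0 and 19.0 RPKM), ERBB2 (4.91 and 3.22), EPCAM (1.61 and 1.60) and CDH1, which had 13 and 0 counts.

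More annexins were higher than lower in LM2. Of the 10 that reached a mean of 50 counts, 7 had a ratio above equal and 3 below, and the interval lay wholly above equal for 6. Summed over the 12 annexins, RPKM came to 698 in MDA-MB-231 against 821 for LM2. Over the S100 list, most of it S100A6, the sum was 2127 in MDA-MB-231 and lower, 1900, in LM2. Over all genes, 7678 of 15469 had a ratio above equal.

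**Figure D3:**
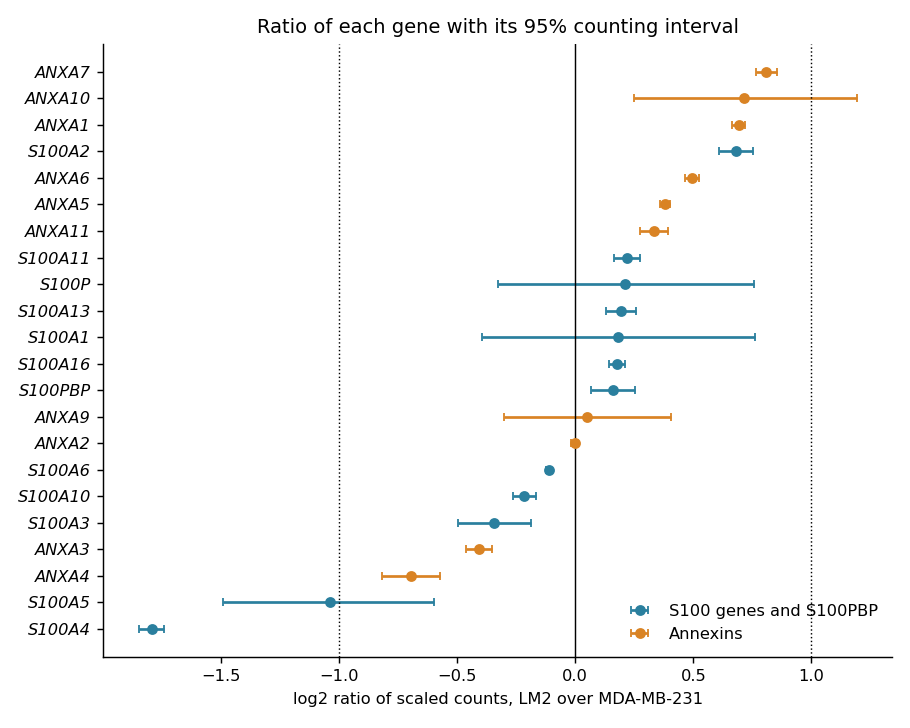
The 22 members averaging 50 counts or more (y axis) by their log2 ratio of LM2 to MDA-MB-231 (x axis), S100 list in blue and annexins in orange, with 95% counting intervals as bars and dotted lines at 2-fold. The points run from -1.79 (S100A4) to 0.81 (ANXA7), and 6 of the 7 largest ratios are those of annexins.

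ANXA2, the most abundant annexin, hardly differed. It had 78155 counts in MDA-MB-231 against 77053 in LM2 (365.8 and 365.4 RPKM), a log2 ratio of 0.00 (-0.02 to 0.01). Annexin A2 gathers S100A10 into a tetramer and links membranes to actin. The RPKM of S100A10 was 0.140 times that of ANXA2 in MDA-MB-231 but 0.121 times in LM2. Its processed pseudogene ANXA2P2, with 98.4% identical bases over the 1020 compared, had 707 and 638 counts. Reads shared by the 2 genes cannot be told apart here.

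ANXA7, ANXA10 and ANXA1 had the largest ratios. ANXA7, also called synexin and linked to granule fusion, had 6049 counts in MDA-MB-231 against 10459 in LM2, 1.75-fold higher (1.70 to 1.81). Of all genes, 6.61% had a larger ratio. Its 30 nearest protein-coding genes on chromosome 10 had a median log2 ratio of 0.51, and 1 of them was over 2-fold higher. ANXA11, a partner of ALG-2 and of RNA granules, lies on the same chromosome arm. It had 4112 and 5116 counts, 1.26-fold higher (1.21 to 1.31), with a median of 0.41 over its 30 neighbours. ANXA7 also shares 105 exon bases with the antisense gene AL512656.1, which had 1111 and 1969 counts. The part of these neighbours in the ratios of both genes was not tested. ANXA10, an annexin of the stomach lining, had 63 and 102 counts, 1.64-fold higher with a wide interval (1.19 to 2.28).

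ANXA1, the glucocorticoid-induced annexin that damps inflammation, had 17713 counts in MDA-MB-231 against 28251 in LM2. It was 1.62-fold higher in LM2 (1.59 to 1.65), with RPKM values of 96.9 and 157. The median log2 ratio of its 30 neighbours was 0.05. ANXA6, the large annexin with a doubled core that binds cholesterol-rich membranes, was 1.41-fold higher (1.38 to 1.44) at 14315 and 19902 counts. ANXA5, the phosphatidylserine binder used to stain dying cells, was 1.30-fold higher (1.28 to 1.32) at 27256 and 35003 counts. ANXA1, ANXA5, ANXA6 and ANXA7 were thus higher by amounts from 1.30-fold to 1.75-fold, and none of the 4 reached 2-fold.

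ANXA4 and ANXA3 went the other way. ANXA4, an annexin of secretory epithelia, had 1454 counts in MDA-MB-231 against 887 in LM2, 1.62-fold lower (1.49 to 1.76). The 30 genes around it had a median log2 ratio of -0.25. ANXA3, linked to neutrophil granules and angiogenesis, was 1.33-fold lower (1.28 to 1.38) at 6146 and 4573 counts. ANXA9, which lacks the usual calcium sites, had 135 and 138 counts, and its interval took in equal levels.

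ANXA8 and ANXA13 were below the mean of 50 counts. ANXA8, an annexin of stratified epithelia, had 74 counts in MDA-MB-231 against 6 in LM2, 12.2-fold lower with a wide interval (5.33 to 34.2). Its copy ANXA8L1 was listed with the same 74 and 6 counts. Both differ in 13 of 2174 transcript bases, so the counts cannot be given to either gene. ANXA13, the annexin closest to the ancestral form, had 0 counts in MDA-MB-231 against 9 in LM2.

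Of 9 listed genes of receptors through which these proteins signal, 5 averaged under 50 counts, and FPR1 was lower in LM2. FPR1, the formyl peptide receptor that annexin A1 peptides bind, had 341 counts in MDA-MB-231 against 32 in LM2, 10.5-fold lower (7.31 to 15.6). FPR2, its relative and a further receptor of annexin A1, had 21 and 0 counts, and AGER had 1 and 6. Of 9 listed receptor genes, 4 reached a mean of 50 counts, with 1 beyond 2-fold on the lower side, 0 on the higher and a median of 0.00. BSG, which binds S100A9, was 1.43-fold higher (1.40 to 1.45), at 70.4 RPKM in MDA-MB-231 and 100 in LM2. TLR4, a receptor of calprotectin, had 4866 and 4859 counts, and ALCAM, the last of the 4, had 21183 and 20581.

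In the plasminogen system, to which the complex of S100A10 and annexin A2 belongs, single genes differed far more than those of the complex. PLAT, tissue plasminogen activator, which binds this complex, had 27222 counts in MDA-MB-231 against 2839 in LM2, 9.46-fold lower (9.10 to 9.84). Inhibitors of these proteases were among the genes higher in LM2. SERPINB2, an inhibitor of plasminogen activators, had 48 and 1049 counts, 22.1-fold higher (16.6 to 30.2). SERPINE2, protease nexin 1, had 787 and 3943 counts, 5.08-fold higher (4.70 to 5.49). Of the 12 of 16 listed genes that reached a mean of 50 counts, 2 lay beyond 2-fold on either side, with a median of 0.02. The urokinase gene PLAU had 18800 and 13473 counts, its receptor PLAUR 3458 and 4270, and AHNAK, a giant protein that binds the S100A10 complex, 182179 and 207347.

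Partners inside the cell differed little at the median. Of 16 intracellular partners of S100 proteins, 2 lay beyond 2-fold on the lower side and 0 on the higher, with a median of -0.02. MYH9, the myosin heavy chain that S100A4 binds best, had 59301 and 44334 counts. MYH10, the second non-muscle myosin of these cells, was 2.67-fold lower (2.54 to 2.80) at 5847 and 2164 counts. STK38, a kinase activated by S100B, was 2.33-fold lower (2.25 to 2.41). Near to 2-fold in the other direction stood IQGAP1, a scaffold that S100B and S100P bind, at 1.83-fold higher (1.80 to 1.86), and PPFIBP1, a liprin that binds S100A4, was 1.45-fold higher (1.38 to 1.52).

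Of 22 genes of membrane repair and vesicle traffic that work with annexins, 19 reached a mean of 50 counts. Beyond 2-fold lay 1 on the lower side and 0 on the higher, and the median was -0.17. DYSF, dysferlin, which seals torn membranes together with annexins A1 and A2, had 2338 counts in MDA-MB-231 against 713 in LM2, 3.24-fold lower (2.97 to 3.52). VPS4B, an ATPase of membrane scission, was 1.89-fold lower (1.77 to 2.02), EHD2, a protein of caveolar necks, 1.86-fold lower (1.75 to 1.99), and CAV1, the caveolin that shapes them, 1.48-fold lower (1.45 to 1.51).

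**Figure D4:**
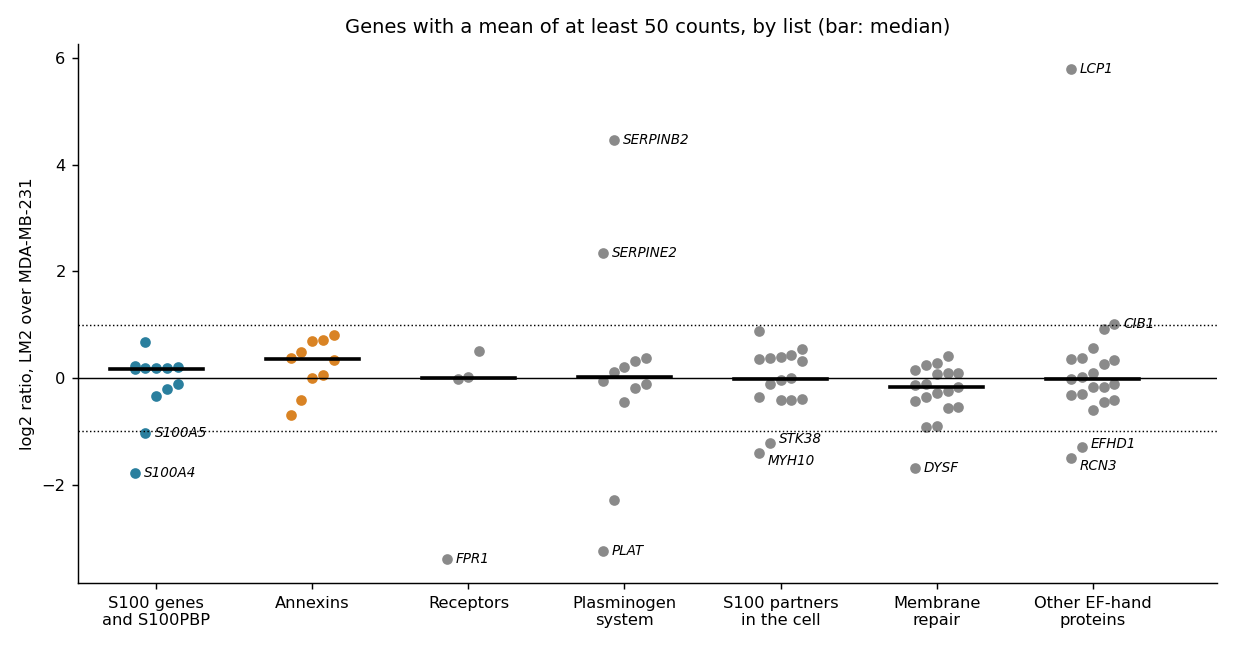
Log2 ratio, LM2 over MDA-MB-231 (y axis), of genes averaging 50 counts or more in the S100 list, the annexins and 5 lists of related genes (x axis), 1 point per gene, with black bars at list medians and dotted lines at 2-fold. The medians lie between -0.17 (membrane repair) and 0.36 (annexins), while single genes such as SERPINB2 at 4.47 and FPR1 at -3.39 lie far from them. Genes are labelled where they lie beyond 2-fold and the text names them.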

How the data were processed

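Per the labels, reads were converted with bcl2fastq and aligned to hg19 with TopHat2 (version 2.0.13), as named in the submitters' processing notes. For the counter, its strand setting and its annotation, the sources used here give no name. The deposited counts are whole numbers of reads per transcript and were used unchanged. The deposited RPKM values equal the count per kilobase of listed length, scaled to the total of the column. Whether a column is 1 library or both samples of a cell line combined is likewise not stated. Symbols came from RefSeq (GRCh38.p14) and GENCODE release 29 for 33714 of 34791 NM_, 6795 of 7527 NR_ and 21822 of 23105 ENST transcripts, giving 34616 genes.

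The test foreseen for separate libraries (edgeR, quasi-likelihood) needs more than 1 column per cell line, so ratios were set against 2-fold at a mean of at least 50 counts. A count of 0 was read as allowing up to 3 counts, and intervals and floors cover counting error only. The members, the gene lists and the promoter motifs were chosen with earlier results of these data known. The genes named were every member, up to 4 genes of each other list with the largest ratio, overlapping or near-identical genes, and the 2 nearest genes on each side of the S100 cluster. FPR2, AGER, CD33, PLAU, PLAUR, AHNAK, MYH9, PLS3, IVL and S100Z were added once their values had been seen. Some genes of the lists are counted but not reported here by name. The calculation passed a trial on simulated counts that held counting error only, so the trial does not bear on the spread between cultures. Alternatives were the scaling (TMM and upper quartile of edgeR 4.0.16, size factors of DESeq2 1.42.0), the count minimum, pseudocounts on RPKM and the transcript chosen. R 4.3.3, Python 3.11.15, scipy 1.17.1 and matplotlib 3.10.9 were used.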

Additional observations from a re-analysis of the deposited data

How the results depend on the processing

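No paired analysis was possible because the table holds 1 column per cell line, and for the same reason no replicate could be left out. Depth limits the members with few counts: S100A1, S100P and ANXA9 had intervals that took in equal levels, and 10 members had means under 50 counts. Under the TMM and upper-quartile factors of edgeR and the size factors of DESeq2, no member crossed 2-fold, and the largest shift of a log2 ratio was 0.014. The ratio of ANXA2, at equal levels, changed sign under 2 of these scalings. With log2(RPKM + 0.1) and log2(RPKM + 1), S100A5 came to -0.94 and -0.52, so that 1 member, S100A4, stayed over 2-fold lower in the S100 list and in both families. The same count of 1 was found at a minimum mean of 200 counts, where S100A5 was not counted. With no minimum, and 0.5 counts added, 2 members of the S100 list and 1 annexin were over 2-fold higher (3 in both families). In that setting 4 members of both families were over 2-fold lower, 1 of them an annexin, ANXA8. At a minimum mean of 10 counts 1 annexin, again ANXA8, was over 2-fold lower. Over all genes, the numbers over 2-fold higher and lower were 3526 and 4329 with no minimum, 1305 and 1843 at a minimum of 10 and 388 and 648 at 200, against 712 and 1061 at 50. Transcripts chosen by RPKM moved the log2 ratio of no member by more than 0.00487, and the other listed transcripts of 7 members by no more than 0.00772. The listed transcripts of a member had nearly equal counts, so this choice could hardly move a ratio and is no separate check. Of 454 other values recomputed, 17 left their interval (or, for a count of genes, moved by over 1.5 times). Part of these values could not move, since the ratio of a single gene does not depend on the count minimum. A reversal was counted only for the members over 2-fold lower, S100A4 and S100A5, and 0 were found.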

Other observations

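S100Z, an S100 gene of chromosome 5 that is not among the members, had 6 counts in MDA-MB-231 against 57 in LM2, 9.63-fold higher (4.16 to 27.3). CD33, a myeloid receptor that S100A9 binds, had 0 counts in MDA-MB-231 against 31 in LM2.

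Other proteins with EF-hands differed in both directions. Of 25 listed genes, 21 reached a mean of 50 counts, and 2 lay beyond 2-fold on either side (median -0.02). LCP1, L-plastin, an actin bundler of leukocytes that is also made by carcinoma cells, had 229 counts in MDA-MB-231 against 12604 in LM2, 55.8-fold higher (48.9 to 63.8). Its relative PLS3, the plastin of most solid tissues, had 19978 and 19814 counts. RCN3, a chaperone of the secretory pathway, was 2.85-fold lower (2.41 to 3.37), and the mitochondrial EFHD1 was 2.47-fold lower (2.01 to 3.05). CIB1, which binds the integrin alpha IIb tail, stood just over the threshold at 2.01-fold higher (1.90 to 2.14).

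Of the genes of chromosome 1 that lie among the S100 genes and encode S100-fused or cornified envelope proteins, 3 of 16 reached a mean of 50 counts, and 0 of the 3 were beyond 2-fold. FLG, profilaggrin, had 3251 counts in MDA-MB-231 against 1772 in LM2, 1.81-fold lower (1.71 to 1.92). HRNR, hornerin, had 968 and 947 counts, and IVL, involucrin, had 0 in both.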
